A study of Mus musculus with 12 samples.

Results

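Closure of a 3 mm wound in the tail epidermis of CD1 mice was profiled in 12 arrays, and the 4 arrays described here compare basal cells of the leading edge (LE) with basal cells of the proliferative hub 7 days after wounding (D7). They were chosen by their titles, and the comparison was made over 17097 genes, each read from 1 probe set. The LE D7 group (2 arrays) holds the cells cut out with a 4 mm punch centred on the wound, the hub D7 group (2 arrays) those of the ring between that punch and one of 6 mm, and the control D7 group (2 arrays) those of tail skin far from the wound. The same 3 groups, 2 arrays each, exist for day 4 (D4). Every array was hybridised with cDNA amplified from 300 sorted cells, positive for α6-integrin and negative for CD34, a gate that takes interfollicular epidermis and infundibulum and leaves out the hair follicle bulge. All mice were of the CD1 background and carried no allele or drug named in the labels, and each array pooled 5 mice. The regions are defined by distance from the wound and not by a marker, so a punch can hold cells of both kinds. The 2 arrays of a group are labelled as biological replicates, but nothing says that their mice differed, and the p-values below rest on treating them as independent.

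When skin is wounded, keratinocytes next to the gap stop dividing, loosen their hold on the basement membrane and crawl over a provisional matrix, while cells further back divide and supply the sheet. Migrating keratinocytes are known for secreted proteases that cut collagen and fibronectin, for rearranged actin and integrin contacts, and for secreted growth factors that act on themselves and on the dermis. The comparison of LE with hub asks which genes differ between the region nearest the wound and the ring behind it.

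Levels are log2 intensities, and a difference is the mean of LE minus the mean of hub on that scale with its standard error (SE), so that 1 stands for a 2-fold difference. A gene is called where the Benjamini-Hochberg adjusted p of limma's test over all 17097 genes is below 0.05, and it is written as risen or fallen in LE cells only then. The arrays of a group were close, with r = 0.9938 between the LE D7 arrays and r = 0.9942 between the hub D7 arrays, and 43 genes differed by more than 2-fold within either pair. The ratio of 3′ to 5′ actin probes, a sign of RNA length, was −0.20 and −0.14 in LE, −0.25 and −0.20 in hub and −0.32 and −0.28 in control D7 arrays. Its part in the differences below was not tested.

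All arrays had the profile of basal keratinocytes. The 10 markers measured for that cell type lay above the array median in each of the 6 D7 arrays, and their summed level was 14.28 and 14.12 in LE cells, 14.27 and 14.28 in hub cells and 14.41 and 14.38 in control cells. Krt14, the basal keratin, measured 11.81 and 11.56 in LE cells, 11.70 and 11.70 in hub cells and 11.69 and 11.69 in control cells, and the ranges of the regions overlapped. Itga6, the integrin used for the sort, measured 10.51 and 10.29 in LE cells, against 10.20 and 10.31 in hub cells (0.15 ± 0.11, adjusted p = 0.596). Cd34, the antigen used to remove bulge cells, stood at 3.52 and 3.26 in LE cells, against 3.26 and 3.20 in hub cells, below the median of each array. Of the basal markers only Dst, the hemidesmosome linker dystonin, was called, at 9.98 and 9.83 in LE cells, against 10.39 and 10.51 in hub cells (−0.55 ± 0.11, adjusted p = 0.0306). Krt15, a keratin of basal and bulge cells, did not overlap between the regions at 7.67 and 8.09 in LE cells, against 9.15 and 9.19 in hub cells but missed the threshold (−1.29 ± 0.39, adjusted p = 0.127). Leaving out 1 array at a time, the call of Dst (adjusted p up to 0.191) ended without any 1 of the 6 D7 arrays.

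At D7, LE cells had risen levels of 227 genes, 1.33% of those tested, and fallen levels of 239, 1.40%. The unadjusted p was below 0.05 for 1449 and 1248 genes. Both LE arrays lay above both hub arrays for 4387 genes (25.7%) and below them for 3671 (21.5%), shares against which each gene group below has to be read. The calls were larger than 2-fold for 97 risen and 88 fallen genes, and the smallest called difference was 0.46 upward and 0.44 downward. Without 1 of the 12 arrays, 24 of the risen and 24 of the fallen genes were called in every one of the 12 fits, and no called gene turned its direction. The count of risen genes was 31 without LE D7 replicate 1, 84 without LE D7 replicate 2, 53 without hub D7 replicate 1 and 46 without hub D7 replicate 2. The counts of fallen genes without the same arrays were 40, 72, 75 and 42, and 141 without either control D7 array. In such a fit the remaining array of the group is assumed to vary as the other groups do.

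**Figure D1:**
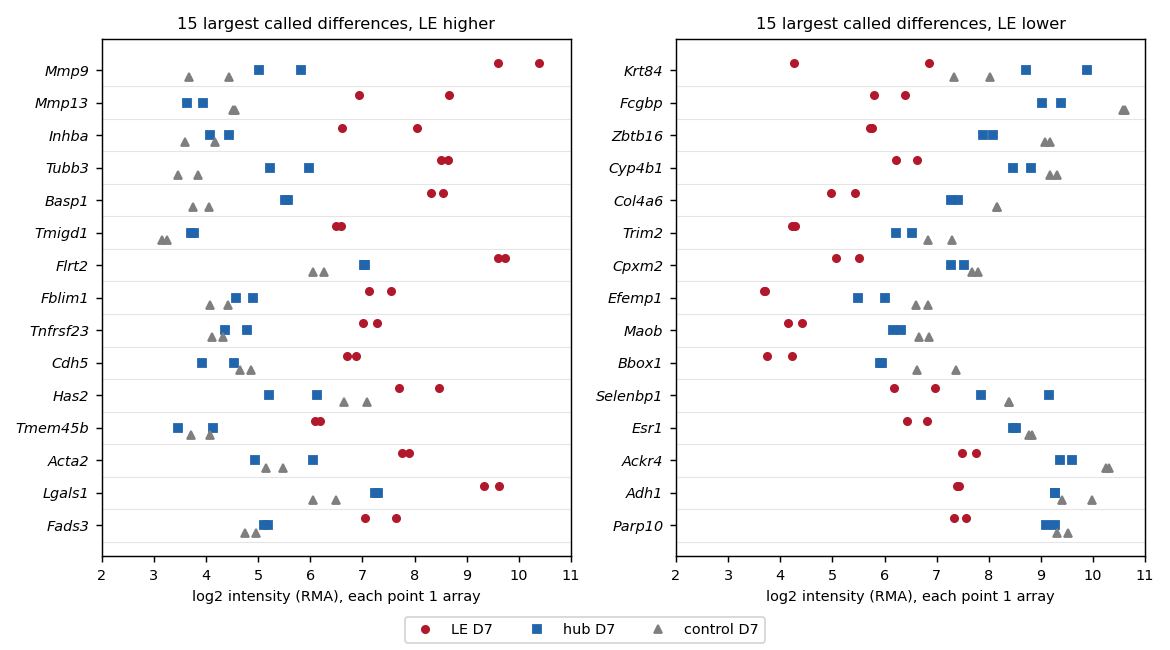
The 15 genes with the largest called differences in each direction that also pass the 2-fold rule, one row a gene. The x axis is the log2 intensity, and each point is 1 array of LE D7 (circles), hub D7 (squares) or control D7 (triangles). In all 30 rows the LE points lie apart from the hub points, and the gap between the 2 LE points is widest for Krt84 (6.86 and 4.27).

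The largest differences were those of secreted matrix-cutting enzymes. Mmp9, gelatinase B, measured 10.38 and 9.60 in LE cells, against 5.02 and 5.82 in hub cells, a difference of 4.57 ± 0.93 (SE) with adjusted p = 0.0351. Mmp13, the interstitial collagenase of mouse, measured 8.65 and 6.93 in LE cells, against 3.62 and 3.93 in hub cells (4.01 ± 0.89, adjusted p = 0.0476). Mmp3, stromelysin 1, which also activates other MMPs, measured 7.39 and 6.52 in LE cells, 4.81 and 5.06 in hub cells and 6.81 and 7.10 in control cells (2.02 ± 0.26, adjusted p = 0.00505). For Mmp9 the control cells, at 4.44 and 3.67, lay below the hub cells, whereas for Mmp3 they lay above both hub arrays and within the range of the LE arrays. Mmp1b, one of the mouse counterparts of human collagenase 1, was dimmer at 4.43 and 3.62 in LE cells, against 2.75 and 2.92 in hub cells (1.18 ± 0.22, adjusted p = 0.0264). Of these values only that of LE D7 replicate 1 lay above its array median, so the size of the Mmp1b difference is uncertain. Mmp2, gelatinase A, went the other way: it fell in LE cells to 6.87 and 7.29, against 8.55 and 8.47 in hub and 8.55 and 8.62 in control cells (−1.43 ± 0.13, adjusted p = 0.00142). Of 16 MMPs measured, these 4 rose and 1 fell, 8 lay above without overlap and 2 below, and the median difference was 0.15, beside 0.012 over all genes. Mmp10, stromelysin 2, lay above without overlap at 7.88 and 6.66 in LE cells, against 4.67 and 4.41 in hub cells but was not called (2.73 ± 0.80, adjusted p = 0.117). With 1 array left out, the call of Mmp9 (adjusted p up to 0.219) ended without any 1 of the 6 D7 arrays, and the call of Mmp13 (adjusted p up to 0.285) ended without any 1 of the 6 D7 arrays or either LE D4 array. The call of Mmp1b (adjusted p up to 0.135) ended without LE D7 replicate 1 or either hub D7 array. The calls of Mmp3 and Mmp2 were kept in all 12 fits.

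Mmp13, Mmp3, Mmp1b and Mmp10 are neighbours in the MMP cluster of mouse chromosome 9, and their promoters are shown because the members of that cluster differed so widely. In the order in which the genes lie, the differences were 4.01 for Mmp13, 0.80 for Mmp12, 1.18 for Mmp1b, 2.02 for Mmp3, 0.28 for Mmp1a, 2.73 for Mmp10, 0.04 for Mmp8, 0.06 for Mmp20 and −0.02 for Mmp7. The 100 bases before the start of transcription follow, read from RefSeq sequence of GRCm38.p6 and written 5′ to 3′ on the strand of the gene. Capitals mark each TGANTCA, searched on both strands, where N is any base. The pattern takes in the sites of AP-1 factors (dimers of Fos and Jun proteins) and is wider than them.
Mmp13, chr9:7272414-7272513, plus strand: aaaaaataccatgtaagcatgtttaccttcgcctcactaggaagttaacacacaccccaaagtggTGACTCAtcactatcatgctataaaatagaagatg
Mmp3, chr9:7445722-7445821, plus strand: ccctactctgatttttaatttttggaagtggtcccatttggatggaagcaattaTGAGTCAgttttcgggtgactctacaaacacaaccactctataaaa
Mmp1b, chr9:7388027-7388126, minus strand: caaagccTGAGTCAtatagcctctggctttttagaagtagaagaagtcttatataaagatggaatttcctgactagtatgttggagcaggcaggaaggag
Mmp10, chr9:7502242-7502341, plus strand: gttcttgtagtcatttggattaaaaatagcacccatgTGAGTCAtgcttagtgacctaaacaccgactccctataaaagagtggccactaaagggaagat
Counted from the start, the first base of the match lies at −35 in Mmp13, −46 in Mmp3, −93 in Mmp1b and −63 in Mmp10. Mmp1a and Mmp7, which were not called, hold a match too, at −73 and −63, and Mmp8 and Mmp12 hold none in 250 bases. These letters occur in the 250 bases before the start of 771 of the 13605 genes with a listed promoter (5.67%), of 14 of 184 risen genes (7.61%) and of 10 of 197 fallen genes (5.08%). The TEAD motif GGAATG was found in 1552 of all these genes (11.4%), 22 of the risen and 33 of the fallen ones, and the SRF CArG box in 174, 4 and 5. A match is a description of the letters and not of binding.

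The inhibitors of these enzymes were measured with less certainty. Timp1, which blocks most secreted MMPs, measured 7.50 and 5.76 in LE cells, against 4.65 and 4.21 in hub cells, with the LE arrays further apart than the lower of them was from either hub array, and was not called (2.20 ± 0.51, adjusted p = 0.0536). Timp3, the inhibitor that is bound to matrix, measured 7.10 and 7.64 in LE cells, against 8.53 and 8.49 in hub cells (−1.14 ± 0.29, adjusted p = 0.0755). None of the 3 TIMPs measured was called, and 1 in each direction had an unadjusted p below 0.05. Among 9 genes of plasminogen activation, Plaur, the urokinase receptor, rose (1.29 ± 0.23, adjusted p = 0.0201), at 6.53 and 6.67 in LE cells, against 5.55 and 5.08 in hub cells. Urokinase itself, Plau, measured 8.49 and 8.27 in LE cells, against 7.63 and 7.60 in hub cells (0.77 ± 0.24, adjusted p = 0.136). In leave-one-out fits, the call of Plaur (adjusted p up to 0.159) ended without either LE D7 array or hub D7 replicate 2.

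Genes of the matrix under the epidermis moved in both directions. Fn1, fibronectin, the main adhesive protein of the provisional wound matrix, measured 5.06 and 5.64 in LE cells, 3.94 and 3.56 in hub cells and 4.10 and 4.22 in control cells (1.60 ± 0.18, adjusted p = 0.00356). Both LE arrays lay above the array medians of 4.25 to 4.28, and the hub and control arrays below them. Lama3, the α3 chain of a laminin, on which keratinocytes crawl, rose without overlap (0.68 ± 0.11, adjusted p = 0.0171), while its other probe set gave −0.15. Col4a1 and Col4a2, the common collagen IV chains, rose by 1.28 and 1.48. Col4a6, a collagen IV chain typical of epithelial basement membranes, fell to 5.43 and 4.98, against 7.27 and 7.41 in hub and 8.16 and 8.15 in control cells (−2.14 ± 0.38, adjusted p = 0.0206). Of 17 genes of basement membrane and fibronectin matrix, 5 rose (Nid1, nidogen, is the fifth), 1 fell, 10 lay above without overlap and 7 below, and the median was 0.37. Efemp1, fibulin 3 of elastic fibres, fell to 3.69 and 3.70, against 5.50 and 6.00 (−2.05 ± 0.45, adjusted p = 0.0462), and Ltbp3, which binds latent TGF-β to the matrix, fell by 1.00. They were the only calls among 12 genes of fibulins and elastic fibre. Of that list 4 lay above and 4 below without overlap, and the median was 0.1. Without 1 array, the calls of Lama3 (adjusted p up to 0.135), Col4a6 (adjusted p up to 0.146) and Ltbp3 (adjusted p up to 0.101) ended without any 1 of the 4 LE and hub arrays of D7, and the call of Col4a1 (adjusted p up to 0.295) ended without any 1 of the 6 D7 arrays, either hub D4 array or either control D4 array. The call of Col4a2 (adjusted p up to 0.122) ended without LE D7 replicate 1 or either hub D7 array, and the call of Efemp1 (adjusted p up to 0.269) ended without any 1 of the 6 D7 arrays or either LE D4 array. The call of Fn1 was kept in all 12 fits. The summed level of markers of endothelial cells, which also make collagen IV, was higher in the LE arrays and is given below with that of Cd34, and its part in the rise of Col4a1 and Col4a2 was not tested.

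Hyaluronan, the large sugar polymer that swells wound matrix, was represented at both its synthesis and its binding. Has2, a hyaluronan synthase of the cell surface, measured 8.47 and 7.70 in LE cells, 6.13 and 5.20 in hub cells and 7.08 and 6.64 in control cells (2.42 ± 0.41, adjusted p = 0.0178), with hub cells below control cells. Has3, a second synthase, measured 8.02 and 7.50 in LE cells, 6.55 and 6.36 in hub cells and 3.62 and 3.91 in control cells (1.30 ± 0.29, adjusted p = 0.0488). Pdpn, podoplanin, a mucin-like protein of migrating epithelium that binds the receptor CD44 for hyaluronan, rose to 9.68 and 8.86, against 7.30 and 7.57 in hub and 5.89 and 5.92 in control cells (1.84 ± 0.23, adjusted p = 0.00432). These 3 of 14 genes rose and none fell, with a median of 0.19. Among them, the call of Has2 (adjusted p up to 0.152) ended without LE D7 replicate 1 or hub D7 replicate 2, and the call of Has3 (adjusted p up to 0.288) ended without any 1 of the 6 D7 arrays, either LE D4 array or either hub D4 array. Podoplanin was called in each of the 12 fits.

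The actin cytoskeleton moved in 1 direction. Of 37 genes for actin, myosin and their partners, 12 rose, none fell, 29 lay above the hub arrays without overlap and none below, and the median was 0.34. Fblim1, migfilin, which ties filamin to integrin contacts, is outside that list and rose to 7.54 and 7.13, against 4.89 and 4.57 in hub cells (2.60 ± 0.22, adjusted p = 0.00142). Within the list, Cald1, caldesmon, which steadies actin filaments, measured 8.64 and 8.31 in LE cells, against 6.62 and 7.25 in hub cells (1.54 ± 0.19, adjusted p = 0.00462). Pdlim7, an adaptor of stress fibres, rose by 1.24, Fscn1, fascin, which bundles actin in protrusions, by 1.21, and Nav2, a navigator protein named for guidance of outgrowing cells, by 1.16. The other 8 risen genes rose by less than 2-fold, among them the tropomyosins Tpm1 (0.79) and Tpm2 (0.61), the formin Fmnl2 (0.81) and Myh9 (0.69), the heavy chain of nonmuscle myosin IIA. All 12 had also been called higher in LE cells at D4. Acta2, smooth muscle actin, measured 7.89 and 7.76 in LE cells, against 4.94 and 6.05 in hub cells (2.33 ± 0.32, adjusted p = 0.00689), while a second probe set of the gene gave −0.26. None of the other 7 muscle and pericyte markers was called. Of that list 3 lay above without overlap and none below. These were Acta2, Ckm (0.19, adjusted p = 0.483) and Tnnt3 (0.12, adjusted p = 0.684), the last 2 below the array medians. Des, Rgs5 and Myh11 lay between 3.45 and 4.10 in the LE and hub arrays, below the array medians, and Acta1 and Mylpf each lay above the median in 1 of these arrays, at 4.35 and 4.36. Of the named genes, the calls of Nav2 (adjusted p up to 0.234), Tpm1 (adjusted p up to 0.218) and Tpm2 (adjusted p up to 0.239) ended without any 1 of the 6 D7 arrays, and the calls of Cald1 (adjusted p up to 0.0553) and Acta2 (adjusted p up to 0.0719) ended without LE D7 replicate 1. The calls of Pdlim7 (adjusted p up to 0.0849) and Fmnl2 (adjusted p up to 0.165) ended without any 1 of the 4 LE and hub arrays of D7, and the call of Fscn1 (adjusted p up to 0.176) ended without LE D7 replicate 1 or either hub D7 array. The call of Myh9 (adjusted p up to 0.173) ended without either LE D7 array or hub D7 replicate 2. Fblim1 was called in all 12 fits.

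Microtubule genes followed with fewer members. Tubb3, the β-tubulin best known from neurons, measured 8.65 and 8.51 in LE cells, 5.98 and 5.22 in hub cells and 3.46 and 3.84 in control cells (2.98 ± 0.43, adjusted p = 0.00897), and so stood higher in hub than in control cells as well. Of 16 tubulins and motors, 4 rose and none fell: besides Tubb3 these were the β-tubulins Tubb2a (0.96) and Tubb6 (0.80) and the α-tubulin Tuba8 (0.91). Tuba8 had no difference at D4 (0.02, adjusted p = 0.987). Basp1, a membrane protein of growing nerve endings that binds the cytoskeleton, measured 8.55 and 8.31 in LE cells, 5.52 and 5.57 in hub cells and 4.06 and 3.75 in control cells, and at 2.89 ± 0.17, adjusted p = 0.000206 it had the smallest p of the comparison. It was also the only gene called at a difference tested to be at least 2-fold. The values within each group lay close together, and no other gene of the first 15 had so small an SE for its difference. In fits without 1 array, the call of Tubb3 (adjusted p up to 0.0922) ended without either LE D7 array or hub D7 replicate 2, and the call of Tubb2a (adjusted p up to 0.139) ended without any 1 of the 4 LE and hub arrays of D7. The call of Tubb6 (adjusted p up to 0.0719) ended without LE D7 replicate 1 or hub D7 replicate 2, and the call of Tuba8 (adjusted p up to 0.23) ended without either LE D7 array, hub D7 replicate 2, either hub D4 array or either control D7 array. Basp1 was called in all of them.

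Surface proteins of guidance and adhesion were mixed. Flrt2, a leucine-rich transmembrane protein that binds Unc5 receptors, rose to 9.74 and 9.61, against 7.04 and 7.05 in hub and 6.04 and 6.27 in control cells (2.63 ± 0.24, adjusted p = 0.00142), and 2 other probe sets gave 2.26 and 2.64. Unc5b, a receptor of that family for netrins and FLRT proteins, fell to 6.88 and 6.70, against 7.95 and 7.81 in hub cells (−1.09 ± 0.19, adjusted p = 0.0184). Sema4d, a semaphorin of the cell surface, rose (0.84 ± 0.12, adjusted p = 0.00849) and Plxnb1, the plexin that receives it, fell (−0.52 ± 0.12, adjusted p = 0.0478). Of 35 semaphorins, plexins, netrins, slits and FLRTs, 3 rose (Flrt3 is the third) and 2 fell, with a median of 0. No integrin subunit of 13 was called, and 4 had an unadjusted p below 0.05. Itga5, the fibronectin receptor subunit, measured 6.05 and 5.32 in LE cells, against 4.49 and 4.79 in hub cells (1.04 ± 0.34, adjusted p = 0.154), and Itga2, a collagen receptor subunit, 7.69 and 7.16 in LE cells, against 6.63 and 6.50 in hub cells (0.85 ± 0.30, adjusted p = 0.19). Tmigd1, an adhesion protein of the immunoglobulin family, rose to 6.49 and 6.59, against 3.70 and 3.76 in hub cells (2.80 ± 0.23, adjusted p = 0.0013). With arrays left out singly, the call of Unc5b (adjusted p up to 0.112) ended without any 1 of the 4 LE and hub arrays of D7, and the call of Sema4d (adjusted p up to 0.084) ended without LE D7 replicate 1 or either hub D7 array. The call of Plxnb1 (adjusted p up to 0.272) ended without any 1 of the 12 arrays. Flrt2 and Tmigd1 were called in all 12 fits.

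Among secreted signals, activin stood first. Inhba, the subunit of activin A, a TGF-β family ligand known for its rise in skin wounds, measured 8.05 and 6.60 in LE cells, 4.07 and 4.43 in hub cells and 3.60 and 4.17 in control cells (3.07 ± 0.59, adjusted p = 0.0283). Both LE arrays lay above all hub and control arrays, while a second probe set of Inhba gave only 0.05. Tgfb1, the ligand TGF-β1, rose (0.87 ± 0.16, adjusted p = 0.0271), and Tgfbr3, the co-receptor betaglycan, fell (−1.26 ± 0.24, adjusted p = 0.0288). These were the only calls among 30 genes of activin, TGF-β and BMP signalling, whose median was −0.03. Of the EGF family, Ereg, epiregulin, rose to 6.58 and 6.67, against 4.47 and 5.02 in hub and 3.79 and 3.11 in control cells (1.88 ± 0.24, adjusted p = 0.00547), and Tgfa, the ligand TGF-α, rose (1.43 ± 0.31, adjusted p = 0.0462). Lrig3, whose relative Lrig1 restrains EGF receptors, fell (−0.64 ± 0.13, adjusted p = 0.0342). That made 2 risen and 1 fallen of 16 genes. Omitting 1 array, the calls of Tgfb1 (adjusted p up to 0.144) and Tgfbr3 (adjusted p up to 0.201) ended without any 1 of the 4 LE and hub arrays of D7, and the calls of Tgfa (adjusted p up to 0.28) and Lrig3 (adjusted p up to 0.154) ended without any 1 of the 6 D7 arrays. The call of Inhba (adjusted p up to 0.195) ended without LE D7 replicate 1 or either hub D7 array, and the call of Ereg (adjusted p up to 0.0524) ended without LE D7 replicate 1.

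Growth factors for other cell types and their receptors differed by less. Pdgfb, a PDGF ligand that attracts mesenchymal cells, rose (0.89 ± 0.17, adjusted p = 0.0302) and Pdgfc, another, fell to 4.09 and 3.91, against 5.25 and 5.18 (−1.22 ± 0.26, adjusted p = 0.0427). Vegfa, the main factor of vessel growth, rose (0.70 ± 0.13, adjusted p = 0.0219). The FGF receptors Fgfr3 (−0.71 ± 0.11, adjusted p = 0.0143) and Fgfr2 (−0.68 ± 0.14, adjusted p = 0.0335), which receive FGFs made by the dermis, both fell, so that 2 of 22 genes of this group rose and 3 fell. Pdgfb had shown no difference at D4 (0.03, adjusted p = 0.974). When 1 array was left out, the calls of Pdgfb (adjusted p up to 0.206) and Fgfr3 (adjusted p up to 0.0963) ended without any 1 of the 4 LE and hub arrays of D7, and the call of Pdgfc (adjusted p up to 0.194) ended without any 1 of the 6 D7 arrays or either LE D4 array. The call of Vegfa (adjusted p up to 0.157) ended without LE D7 replicate 1 or either hub D7 array.

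Among the Wnt genes listed, 1 rose. Wnt5a, the ligand that acts largely without β-catenin and steers cell polarity and migration, measured 6.85 and 6.16 in LE cells, 4.19 and 4.45 in hub cells and 3.14 and 3.27 in control cells (2.18 ± 0.26, adjusted p = 0.00424), the control arrays below their medians. Ror1, a receptor tyrosine kinase for it, fell to 3.79 and 3.78, against 4.61 and 5.02 in hub cells (−1.03 ± 0.21, adjusted p = 0.037), and Prickle2, of the planar polarity core, fell (−0.80 ± 0.18, adjusted p = 0.0488). A second probe set of Ror1 gave −0.09. Of 16 genes of noncanonical Wnt signalling, 1 rose, 2 fell, 4 lay above and 10 below without overlap, and the median was −0.25. Of 32 genes of the canonical branch none rose, and Apcdd1, an inhibitor at the membrane, fell to 6.95 and 6.60, against 7.75 and 7.82 (−1.01 ± 0.16, adjusted p = 0.0143), with 5 genes above and 12 below without overlap. By array left out, the call of Ror1 (adjusted p up to 0.241) ended without any 1 of the 6 D7 arrays, and the call of Prickle2 (adjusted p up to 0.287) ended without any 1 of the 6 D7 arrays or either LE D4 array. The call of Apcdd1 (adjusted p up to 0.112) ended without LE D7 replicate 2 or either hub D7 array. Wnt5a kept its call in all 12 fits. Nt5e, the ectoenzyme CD73 and a YAP target, rose (1.14 ± 0.13, adjusted p = 0.00406) and Ccn1, a matricellular protein and the best known YAP target, fell to 8.23 and 8.89, against 9.86 and 9.82 (−1.28 ± 0.20, adjusted p = 0.0116). Ccn1 was called in all fits but those without LE D7 replicate 1 or either hub D7 array (adjusted p up to 0.0872), and Nt5e in all. These were the only calls among 16 YAP and TAZ targets.

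Cytokine genes gave 1 call, and of 21 cytokine and chemokine receptors 1 rose and 2 fell. Among these receptors 7 lay above and 9 below without overlap, and the median was −0.08. Of 26 cytokines and chemokines only Ccl27a, a keratinocyte chemokine for T cells, was called: it fell to 7.25 and 7.26, against 8.76 and 8.87 in hub and 9.59 and 9.57 in control cells (−1.56 ± 0.30, adjusted p = 0.0292). Il4ra, the receptor chain for interleukins 4 and 13, rose to 7.60 and 7.44, against 6.00 and 5.91 (1.57 ± 0.14, adjusted p = 0.00142). Ackr4, a receptor that removes chemokines, fell to 7.48 and 7.75, against 9.37 and 9.60 (−1.87 ± 0.32, adjusted p = 0.0178), and Lifr, the receptor of leukaemia inhibitory factor, fell (−0.90 ± 0.15, adjusted p = 0.0178). Of 22 genes of the interferon response and antigen presentation, Ifi27, an interferon-induced mitochondrial protein, alone was called: it fell to 8.78 and 8.80, against 9.70 and 9.74 (−0.93 ± 0.10, adjusted p = 0.00348). Tnfrsf23, a decoy receptor for the death ligand TRAIL, rose to 7.28 and 7.02, against 4.37 and 4.79 (2.57 ± 0.34, adjusted p = 0.00579). Leaving single arrays out, the calls of Ackr4 (adjusted p up to 0.142) and Lifr (adjusted p up to 0.137) ended without any 1 of the 4 LE and hub arrays of D7, and the call of Ccl27a (adjusted p up to 0.175) ended without any 1 of the 6 D7 arrays. The call of Tnfrsf23 (adjusted p up to 0.069) ended without LE D7 replicate 1 or hub D7 replicate 1. Il4ra and Ifi27 were called throughout.

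**Figure D2:**
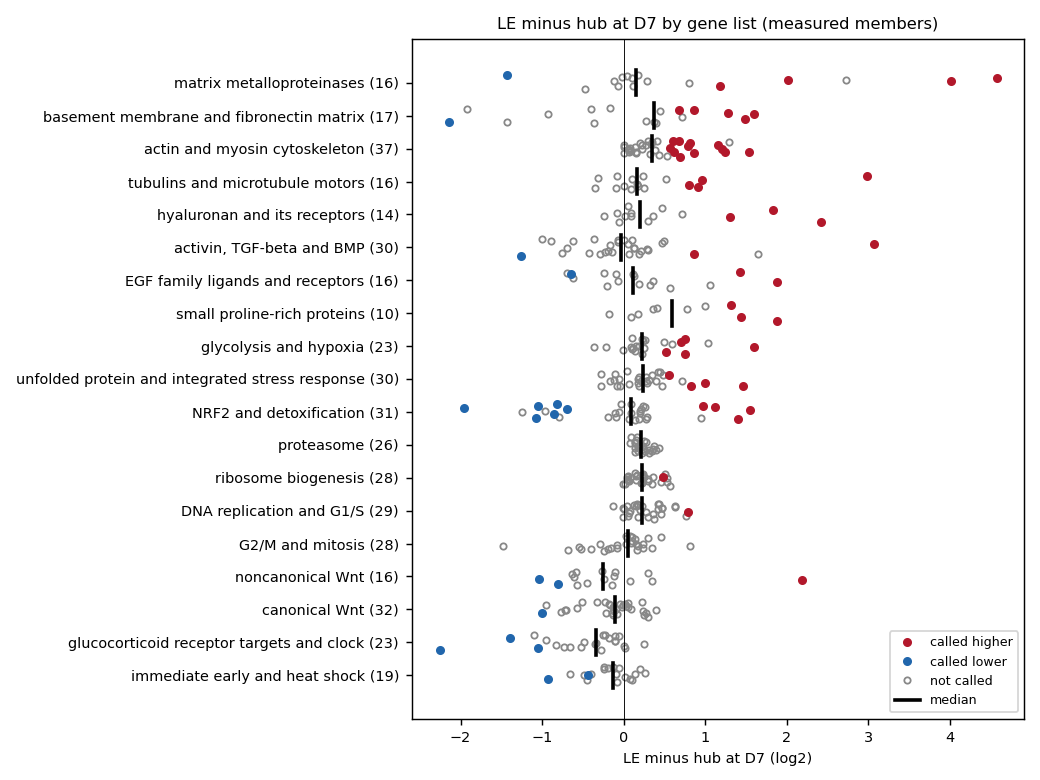
Differences LE minus hub at D7 on the log2 scale (x axis) for the measured members of 19 gene lists (rows, number of members in parentheses). Each point is 1 gene, filled where called higher or lower and open where not called, and the black bar is the median of the list. Actin and myosin, proteasome and ribosome biogenesis genes lie almost wholly at or right of 0, with medians of 0.34, 0.21 and 0.23, and glucocorticoid receptor targets and clock genes mostly left of it, with a median of −0.34.

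Some genes of low oxygen and of protein stress were higher. Slc16a3, the lactate exporter MCT4, measured 8.64 and 8.51 in LE cells, 6.97 and 6.97 in hub cells and 5.59 and 5.64 in control cells (1.60 ± 0.23, adjusted p = 0.00869), with no overlap among the regions. Bnip3, a mitophagy protein (0.76), Ero1a, an oxidase of the endoplasmic reticulum (0.76), Vegfa, given above, and Hk2, hexokinase 2 (0.52), also rose, which made 5 of 23 genes of glycolysis and hypoxia, none fallen, with 17 above without overlap and a median of 0.23. In the unfolded protein and integrated stress responses 4 of 30 genes rose and none fell, with a median of 0.24. These were Trib3, a pseudokinase induced by ATF4 (1.46), Xbp1, the transcription factor of the unfolded protein response (1.00), Sesn2, a sensor that restrains mTORC1 (0.82), and Manf, a chaperone of the endoplasmic reticulum (0.56). In these groups and without 1 array, the calls of Ero1a (adjusted p up to 0.134), Xbp1 (adjusted p up to 0.194), Sesn2 (adjusted p up to 0.15) and Manf (adjusted p up to 0.178) ended without any 1 of the 4 LE and hub arrays of D7, and the call of Slc16a3 (adjusted p up to 0.0849) ended without LE D7 replicate 1 or either hub D7 array. The call of Bnip3 (adjusted p up to 0.144) ended without either LE D7 array, hub D7 replicate 1 or either control D7 array, and the call of Trib3 (adjusted p up to 0.0513) ended without hub D7 replicate 2.

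Detoxifying enzymes moved in both directions. Hmox1, haem oxygenase 1, rose to 8.21 and 7.88, against 6.64 and 6.36 (1.55 ± 0.20, adjusted p = 0.00527), together with Akr1b8, an aldo-keto reductase (1.41), Gsta4, a glutathione transferase (1.12), and Srxn1, sulfiredoxin (0.97). Maob, monoamine oxidase B, fell to 4.16 and 4.42, against 6.16 and 6.32 in hub and 6.67 and 6.86 in control cells (−1.95 ± 0.16, adjusted p = 0.0013), as did Aldh3a1, Gstm2, Ephx1, Cbr2 and Gstm1, enzymes for aldehydes, epoxides and carbonyls, so that 4 of 31 genes rose and 6 fell. Outside that list Cyp4b1, a cytochrome P450, fell to 6.22 and 6.63, against 8.46 and 8.81 (−2.21 ± 0.25, adjusted p = 0.00392), and Adh1, an alcohol dehydrogenase that oxidises retinol, to 7.40 and 7.42, against 9.26 and 9.27 (−1.86 ± 0.20, adjusted p = 0.00283). For both genes the LE arrays lay more than 3-fold below the hub arrays. Among the named enzymes, the call of Hmox1 (adjusted p up to 0.0628) ended without LE D7 replicate 1 or hub D7 replicate 2, and the call of Akr1b8 (adjusted p up to 0.0772) ended without LE D7 replicate 1. The call of Gsta4 (adjusted p up to 0.113) ended without any 1 of the 4 LE and hub arrays of D7, and the call of Srxn1 (adjusted p up to 0.223) ended without any 1 of the 4 LE and hub arrays of D7, either LE D4 array or either hub D4 array. Maob, Cyp4b1 and Adh1 were called in all 12 fits. Of 31 genes of fatty acid and lipid metabolism, Ppard, a nuclear receptor for fatty acids, rose (0.87 ± 0.16, adjusted p = 0.0244), and Lpl, lipoprotein lipase, fell to 4.38 and 4.53, against 5.96 and 5.94 (−1.49 ± 0.24, adjusted p = 0.0144), as did the lipid carrier Apoe (−1.17 ± 0.21, adjusted p = 0.0216). A second probe set of Lpl gave 0.09. These 3 calls ended without any 1 of the 4 LE and hub arrays of D7 (adjusted p up to 0.177 for Ppard, 0.117 for Lpl and 0.158 for Apoe).

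Few genes of cell division were called at D7. By their medians, the G2/M and DNA replication lists did not have higher levels in hub than in LE cells. None of 28 genes of G2/M and mitosis was called, 1 had an unadjusted p below 0.05, downward, and 6 lay above and 6 below without overlap, with a median of 0.05. Of 29 genes of DNA replication, Rrm2, of the enzyme that makes deoxynucleotides, rose in LE cells to 10.30 and 10.30, against 9.65 and 9.38 in hub cells (0.79 ± 0.14, adjusted p = 0.0244), 18 lay above and none below, and the median was 0.22. Nhp2, a protein of small nucleolar particles, was the only called gene of 28 of ribosome biogenesis (0.48 ± 0.10, adjusted p = 0.0371), of which 22 lay above and none below, with a median of 0.23. No proteasome gene of 26 was called, 9 had an unadjusted p below 0.05, all upward, and 24 lay above, with a median of 0.21. At D4 the medians of these lists had been −0.03 for G2/M, −0.07 for DNA replication, −0.07 for ribosome biogenesis and 0.12 for the proteasome. E2f7, an E2F repressor of the cell cycle, rose to 5.41 and 5.59, against 4.47 and 3.77 in hub cells (1.38 ± 0.23, adjusted p = 0.0178), while Trp53inp1, a p53 target (−1.04 ± 0.16, adjusted p = 0.0119), and Ccng2, a cyclin of arrested cells (−0.70 ± 0.16, adjusted p = 0.047), fell. Here, the calls of E2f7 (adjusted p up to 0.115) and Trp53inp1 (adjusted p up to 0.111) ended without either LE D7 array or hub D7 replicate 2, and the call of Rrm2 (adjusted p up to 0.174) ended without any 1 of the 4 LE and hub arrays of D7. The call of Nhp2 (adjusted p up to 0.217) ended without any 1 of the 6 D7 arrays or either hub D4 array, and the call of Ccng2 (adjusted p up to 0.251) ended without any 1 of the 6 D7 arrays or either LE D4 array. No respiratory chain gene of 36 was called, with 3 at an unadjusted p below 0.05, and their median was −0.01.

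Genes of the cornified envelope rose in part. Sprr2d, a small proline-rich protein that is cross-linked into the cornified envelope, measured 9.06 and 9.23 in LE cells, 7.80 and 7.85 in hub cells and 4.12 and 3.70 in control cells (1.32 ± 0.16, adjusted p = 0.00424), Sprr2h measured 9.21 and 9.51 in LE cells, against 7.66 and 7.30 in hub cells (1.88 ± 0.32, adjusted p = 0.0184) and Sprr1b 9.99 and 10.07 in LE cells, against 8.75 and 8.43 in hub cells (1.44 ± 0.30, adjusted p = 0.0403). These 3 of 10 rose, 7 lay above and none below without overlap, and the median was 0.59. Tgm1, the transglutaminase that cross-links such proteins, rose to 8.31 and 8.16, against 6.70 and 6.97 (1.40 ± 0.27, adjusted p = 0.0302), the only call among 29 genes of suprabasal differentiation. Of that list 9 lay above and 5 below without overlap, with a median of 0.04. Its lowest difference, −2.96, was not called. Klk10, a kallikrein protease, rose (1.57 ± 0.35, adjusted p = 0.0488). It is also the only call among 9 markers of infundibulum, isthmus and junctional zone, a region that the sort takes in part, of which 6 lay below the hub arrays without overlap, among them Krt80 (−1.42, adjusted p = 0.0531), Ly6g6c (−1.19, adjusted p = 0.263) and Defb6 (−1.13, adjusted p = 0.562). The median of that list was −0.24, and its summed level was 11.65 and 11.60 in LE cells, 11.94 and 11.88 in hub cells and 12.28 and 12.07 in control cells. Krt16, a keratin induced by wounding, measured 11.72 and 11.75 in LE cells, 11.27 and 11.21 in hub cells and 10.47 and 10.64 in control cells and was not called (0.50 ± 0.13, adjusted p = 0.0829). By single omissions, the calls of Sprr2h (adjusted p up to 0.151), Sprr1b (adjusted p up to 0.241) and Tgm1 (adjusted p up to 0.189) ended without any 1 of the 4 LE and hub arrays of D7, and the call of Klk10 (adjusted p up to 0.253) ended without any 1 of the 6 D7 arrays or either control D4 array. Sprr2d was called in all 12 fits. Sprr genes are near-identical copies, so probes of one may read another.

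Of genes outside the lists, the largest risen ones included Tmem45b, a transmembrane protein (6.09 and 6.18 in LE cells, against 4.12 and 3.46 in hub cells, difference 2.34 ± 0.25, adjusted p = 0.00283), Lgals1, galectin 1, a lectin that binds matrix and cell surface sugars (9.33 and 9.62 in LE cells, against 7.24 and 7.30 in hub cells, difference 2.20 ± 0.34, adjusted p = 0.0117), and Fads3, of the fatty acid desaturase family (7.65 and 7.04 in LE cells, against 5.20 and 5.11 in hub cells, difference 2.20 ± 0.22, adjusted p = 0.00234). The groups did not overlap in any of the 3. The 2 other probe sets of Fads3 gave 0.26 and 1.72. In the same fits, the call of Lgals1 (adjusted p up to 0.0887) ended without any 1 of the 4 LE and hub arrays of D7. Tmem45b and Fads3 were called throughout.

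The genes that fell included a keratin of tail scales, an oestrogen receptor and targets of glucocorticoids. Fcgbp, a mucin-like protein that binds immunoglobulin, fell to 5.81 and 6.40, against 9.02 and 9.38 in hub and 10.61 and 10.58 in control cells (−3.10 ± 0.30, adjusted p = 0.0016). Krt84, a hard keratin made in the scales of tail skin, measured 6.86 and 4.27 in LE cells, 9.89 and 8.71 in hub cells and 8.02 and 7.33 in control cells (−3.73 ± 0.76, adjusted p = 0.0358), the largest called fall, with the LE arrays further apart than the hub arrays. Krt36, another hard keratin of tail scales, measured 7.82 and 4.43 in LE cells, 10.55 and 9.31 in hub cells and 9.43 and 8.74 in control cells and was not called (−3.80 ± 0.97, adjusted p = 0.0756). Of the 3 scale markers measured, 1 was called, and 1 lay above and 2 below without overlap. The 1 above was Krt31, at 3.58 and 3.70 in LE cells, against 3.48 and 3.58 in hub cells, below the array medians (0.11, adjusted p = 0.711). Zbtb16, a zinc-finger repressor induced by glucocorticoids, fell to 5.75 and 5.71, against 8.09 and 7.89 in hub and 9.07 and 9.17 in control cells (−2.26 ± 0.21, adjusted p = 0.00154). Klf9, a glucocorticoid target and clock output (−1.40 ± 0.17, adjusted p = 0.00424), and Rora, a receptor of the clock (−1.05 ± 0.16, adjusted p = 0.0119), fell too, which made 3 of 23 glucocorticoid receptor targets and clock genes, with 1 above and 16 below without overlap and a median of −0.34. Esr1, the oestrogen receptor α, fell to 6.43 and 6.81, against 8.46 and 8.52 (−1.87 ± 0.37, adjusted p = 0.0309). Across fits without 1 array, the call of Krt84 (adjusted p up to 0.179) ended without LE D7 replicate 2, either hub D7 array or either control D7 array, and the call of Klf9 (adjusted p up to 0.0521) ended without LE D7 replicate 1. The call of Rora (adjusted p up to 0.111) ended without either LE D7 array or hub D7 replicate 2, and the call of Esr1 (adjusted p up to 0.206) ended without any 1 of the 6 D7 arrays. Fcgbp and Zbtb16 were called in all 12.

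Some immediate early genes were lower. Nr4a1, an orphan nuclear receptor of that class, fell to 8.01 and 8.20, against 9.02 and 9.03 in hub and 9.82 and 9.82 in control cells (−0.92 ± 0.13, adjusted p = 0.00862), and Atf3, a stress-induced partner of AP-1, fell (−0.44 ± 0.09, adjusted p = 0.0398). No AP-1 gene of 12 lay above the hub arrays without overlap, 7 lay below, and 1 was called, Atf3. Of 48 epidermal transcription factors, Ets1, an ETS factor (1.15 ± 0.25, adjusted p = 0.0431), and Elk3, another (1.12 ± 0.24, adjusted p = 0.0419), rose, and Klf9, given above, and Hopx, a homeodomain protein of differentiating and stem cells (−1.04 ± 0.15, adjusted p = 0.00886), fell. Removing 1 array, the call of Nr4a1 (adjusted p up to 0.0849) ended without LE D7 replicate 1 or either hub D7 array, and the call of Atf3 (adjusted p up to 0.195) ended without any 1 of the 6 D7 arrays, either hub D4 array or either control D4 array. The call of Ets1 (adjusted p up to 0.269) ended without any 1 of the 6 D7 arrays, and the call of Elk3 (adjusted p up to 0.181) ended without either LE D7 array, either LE D4 array, hub D7 replicate 1, either hub D4 array or either control D7 array. The call of Hopx (adjusted p up to 0.0852) ended without LE D7 replicate 1 or hub D7 replicate 2.

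The remaining large falls were of varied function. Parp10, a mono-ADP-ribosyltransferase, fell to 7.33 and 7.56, against 9.09 and 9.26 (−1.73 ± 0.13, adjusted p = 0.00114), Cpxm2, a carboxypeptidase-like matrix protein, to 5.07 and 5.51, against 7.53 and 7.27 (−2.11 ± 0.26, adjusted p = 0.00424), and Trim2, a ubiquitin ligase, to 4.28 and 4.23, against 6.21 and 6.53 (−2.12 ± 0.30, adjusted p = 0.00886). Bbox1, the last enzyme of carnitine synthesis, measured 4.22 and 3.75 in LE cells, 5.96 and 5.91 in hub cells and 7.38 and 6.62 in control cells (−1.95 ± 0.28, adjusted p = 0.00886), and Selenbp1, a selenium-binding enzyme, 6.97 and 6.18 in LE cells, against 9.16 and 7.85 in hub cells (−1.93 ± 0.44, adjusted p = 0.049). A second probe set of Bbox1 gave −0.07. For each of these genes the control cells lay on the side of the hub cells. Under omission of 1 array, the call of Cpxm2 (adjusted p up to 0.0521) ended without LE D7 replicate 1, and the call of Trim2 (adjusted p up to 0.0872) ended without either LE D7 array or hub D7 replicate 2. The call of Bbox1 (adjusted p up to 0.0735) ended without LE D7 replicate 2 or either hub D7 array, and the call of Selenbp1 (adjusted p up to 0.233) ended without either LE D7 array, either LE D4 array, hub D7 replicate 1, either control D7 array or either control D4 array. Parp10 was called in all 12 fits.

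All 12 endothelial markers had a higher mean in LE than in hub cells, 9 did not overlap, 2 were called, and the median was 0.61. Their summed level was 9.06 and 8.83 in LE, 8.10 and 8.02 in hub and 8.03 and 8.24 in control cells, and 10 of 12 lay above the array median in both LE arrays, against 6 and 5 in the hub arrays. Cdh5, VE-cadherin, which joins endothelial cells, measured 6.88 and 6.70 in LE cells, 4.54 and 3.93 in hub cells and 4.65 and 4.87 in control cells (2.56 ± 0.52, adjusted p = 0.0342), and Tie1, an endothelial receptor kinase, 5.04 and 5.17 in LE cells, 4.00 and 4.05 in hub cells and 3.86 and 3.99 in control cells (1.08 ± 0.20, adjusted p = 0.0244). A second probe set of Cdh5 gave 0.81, and at D4 Cdh5 differed by 0.85 (adjusted p = 0.503), with a list median of 0.13 and no call. Pecam1, which defines the endothelium as well, measured 6.67 and 6.12 in LE cells, against 5.84 and 5.72 in hub cells (0.61 ± 0.55, adjusted p = 0.684), and Vwf, von Willebrand factor, 3.97 and 3.61 in LE cells, against 3.69 and 3.43 in hub cells. The sort took cells positive for α6-integrin and negative for CD34, and whether endothelial cells passed it was not tested. Cd34, whose values are given above and lie below the array medians, differed by 0.16 ± 0.20, adjusted p = 0.79. In pooled cells, more cells of a type and more RNA per cell cannot be told apart. Without single arrays, the call of Cdh5 (adjusted p up to 0.222) ended without any 1 of the 6 D7 arrays, and the call of Tie1 (adjusted p up to 0.141) ended without any 1 of the 4 LE and hub arrays of D7.

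Thy1, a surface protein of T cells and fibroblasts, fell to 6.74 and 6.86, against 8.28 and 8.43 in hub and 8.81 and 8.54 in control cells (−1.56 ± 0.15, adjusted p = 0.00154), in all 12 fits. The other 8 T cell markers, Cd3d, Cd3e and Cd3g among them, lay below the median of each of the 4 arrays, and none of them was called. No other marker of 12 for fibroblasts was called, and Col1a1, the main collagen chain of that cell type, measured 4.23 and 4.55 in LE cells, against 4.52 and 4.41 in hub cells. H2-Ab1, a class II chain of antigen-presenting cells, measured 6.82 and 6.51 in LE cells, 3.80 and 5.02 in hub cells and 7.79 and 3.59 in control cells and was not called (2.26 ± 1.04, adjusted p = 0.332) but was with the 4 compared arrays fitted alone (adjusted p = 0.0217), while Cd207, langerin, lay at 3.44 and 3.23 in LE cells, against 3.34 and 3.39 in hub cells. Of the 10 Langerhans and dendritic cell markers, 6 lay above the hub arrays without overlap, none below and none was called, with a median of 0.14 and a summed level of 9.39 and 9.34 in LE cells, 8.98 and 8.99 in hub cells and 9.76 and 9.05 in control cells. No marker of 13 for macrophages, 8 for neutrophils or 10 for melanocytes was called. Of the melanocyte markers 6 lay below without overlap, with a median of −0.13, and of 6 sebaceous gland markers 5 did, with a median of −0.29 and no call. Postn, periostin, a matrix protein listed with the bulge and outer root sheath, fell (−0.76 ± 0.13, adjusted p = 0.0194), the only call of 12, of which 4 lay above and 4 below. Pmp22, a protein of myelin, fell (−0.98 ± 0.22, adjusted p = 0.0484), the only call of 5 Schwann cell markers. With 1 array taken out, the call of Postn (adjusted p up to 0.15) ended without any 1 of the 4 LE and hub arrays of D7, and the call of Pmp22 (adjusted p up to 0.282) ended without either LE D7 array, either LE D4 array, hub D7 replicate 1, either hub D4 array, either control D7 array or either control D4 array.

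**Figure D3:**
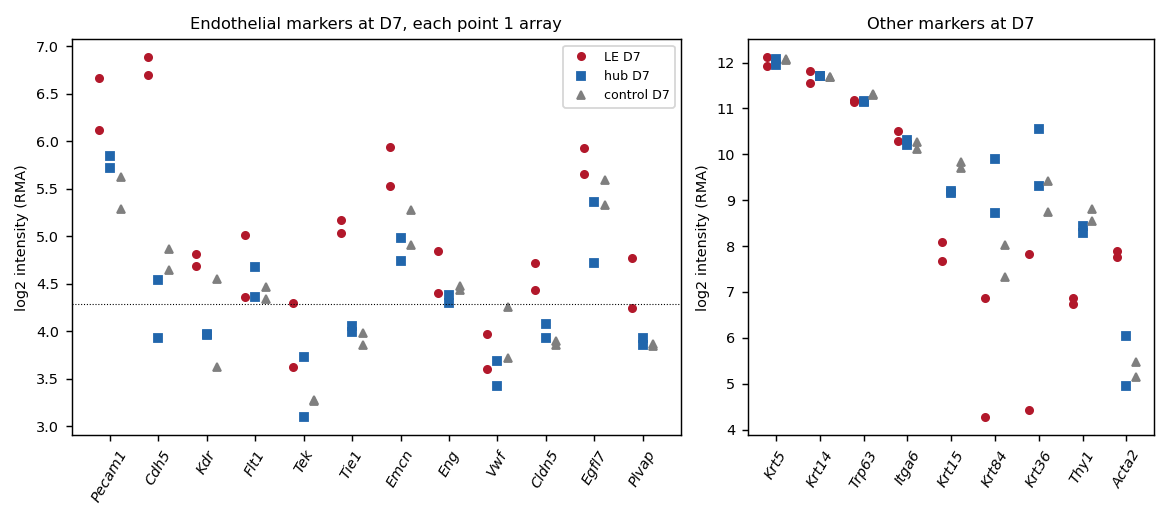
Log2 intensity (y axis) at D7 of 12 endothelial markers (left) and of 9 keratinocyte, scale, Thy1 and muscle markers (right), each point 1 array of LE (circles), hub (squares) or control cells (triangles). The dotted line in the left panel is the highest median of a D7 array (4.28). LE points lie above both hub points for 9 of the 12 endothelial markers, while Krt5, Krt14 and Trp63 coincide among the regions.

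Some calls depended on the processing. With quantile normalization over all 12 arrays, Mmp13, Has3, Col4a1, Efemp1, Tgfa, Sprr1b, Klk10, Cdh5, Ets1, Srxn1, Tuba8, Pdgfc, Prickle2, Plxnb1, Pmp22, Ccng2 and Selenbp1 were not called, with unchanged directions. Subtracting the median of each array ended the calls of Col4a1, Efemp1, Plxnb1, Pmp22, Prickle2, Ccng2 and Selenbp1, and a trended prior for the spread those of Mmp9, Mmp13, Krt84, Plxnb1, Ccng2 and Selenbp1. The mean over all probe sets of a gene ended those of Lama3, Ltbp3, Tgfa, Pdgfb, Nav2, Tpm1, Tpm2, Tuba8, Plxnb1 and Ccng2. The 4 arrays fitted alone did not call Mmp1b, Col4a1, Krt84, Tuba8, Tpm2, Bnip3, Manf, Nhp2, Elk3, Atf3, Dst, Plxnb1, Pmp22, Prickle2 and Selenbp1. Calls were also gained: Timp1 was called with a filter on dim genes or with array weights, Krt16 with the trended prior, and Plau and Timp3 with the 4 arrays or with the arrays of the day alone, a fit that also called Itga2 and Procr. Besides the probe sets given above, others of a called gene gave a difference near 0 or of the other sign for Ccng2 (0.07), Tuba8 (0.04), Nt5e (0.07), Cald1 (0.01), Nav2 (−0.16), Tpm1 (−0.08), Tpm2 (−0.09) and Plxnb1 (−0.1), each the one furthest from the called value.

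The 4 arrays of D4 share no RNA with those of D7, so their levels measure the same regions anew, in younger wounds. The calls of the days are not independent, because the spread of each gene was estimated from the arrays of both days together. At D4, 446 genes had risen in LE against hub cells (2.61%) and 367 had fallen (2.15%). Of the 227 genes risen at D7, 153 had risen at D4, which is 67.4% of the D7 list and 34.3% of the D4 list, and of the 239 fallen 153 had fallen at D4, 64.0% and 41.7%. No gene was called in opposite directions. Each gene had the same SE on both days, which favours genes with a small SE in both lists, so these shares are not an independent replication. With the arrays of the day alone, 154 genes rose and 109 fell at D4, and 340 rose and 385 fell at D7. Across the risen genes the median difference was 0.92 at D7 and 0.87 at D4, and across the fallen genes −0.89 and −0.79. Over all genes, which are not independent of each other, r between the differences of the days was 0.694. Inhba (3.60 at D4), Basp1 (3.55), Tubb3 (2.65), Fcgbp (−2.20) and Zbtb16 (−2.31) were called on both days. The D4 counts without LE D4 replicate 1 were 183 risen and 181 fallen, and without hub D4 replicate 2 they were 161 and 161. Without hub D4 replicate 1, 283 genes rose.

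**Figure D4:**
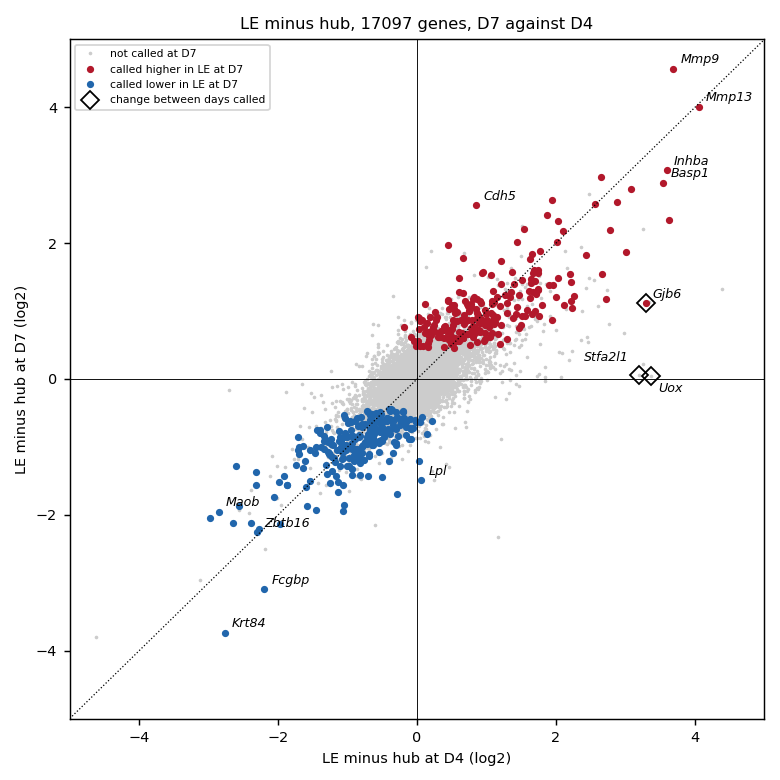
Difference LE minus hub at D7 (y axis) against that at D4 (x axis), both log2, for 17097 genes. Points called at D7 are coloured by direction, diamonds mark the 3 genes whose difference changed between the days, and the dotted line is equality. Most coloured points lie at the lower left or the upper right, and the diamonds of Uox and Stfa2l1 lie near 0 at D7.

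A change between the days needs its own test. The difference between LE and hub changed for 3 genes (0.0175%), all of them larger at D4, and the unadjusted p was below 0.05 for 396 genes with a higher and 478 with a lower difference at D7. For Stfa2l1, a cystatin of the stefin A family, LE cells measured 7.92 and 7.64 at D4, against 4.45 and 4.74 in hub cells, and at D7 the values were 3.61 and 3.33 in LE cells, against 3.39 and 3.44 in hub cells, a change of −3.13 (adjusted p = 0.00144). For Gjb6, connexin 30, a gap junction protein of wounded epidermis, LE cells measured 8.60 and 8.45 at D4, against 5.18 and 5.29 in hub cells, and at D7 5.74 and 5.27 in LE cells, against 4.27 and 4.51 in hub cells, where it was still called (1.11 ± 0.16, adjusted p = 0.00886), a change of −2.17 (adjusted p = 0.0236). For Uox, urate oxidase, the enzyme that breaks down uric acid, LE cells measured 10.72 and 10.13 at D4, against 7.37 and 6.74 in hub cells, and at D7 3.97 and 4.42 in LE cells, against 4.13 and 4.16 in hub cells, a change of −3.32 (adjusted p = 0.0286). The array medians differed between the days, so only differences within a day were compared. Stfa2l1 was called without each of the 12 arrays (adjusted p up to 0.0243). The change of Uox was not called without LE D4 replicate 1, hub D4 replicate 2 or any 1 of the 6 D7 arrays, and that of Gjb6 without LE D4 replicate 1, either hub D4 array, LE D7 replicate 2, either hub D7 array or either control D7 array, with adjusted p of up to 0.287 for Uox and 0.23 for Gjb6, both without hub D7 replicate 2. Of the 74 genes called higher at D7 and not at D4, with medians of 0.84 at D7 and 0.38 at D4, none had a called change, and 37 had an unadjusted p below 0.05. Of the 86 called lower at D7 alone, with medians of −0.75 and −0.39, none had one either, and 27 were below 0.05 unadjusted.

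A rule of size alone, without a test, asks for more than 2-fold in each replicate, here each LE D7 array against the hub D7 array of the same number. It took 102 genes as higher (0.597%) and 96 as lower (0.562%). Of these 68 and 59 were also called, 34 and 37 were not, and 130 risen and 151 fallen genes were called at less than 2-fold. Inside the rule but not called were Timp1 and Mmp10, given above, Procr, the protein C receptor (9.02 and 8.62 in LE cells, against 7.39 and 7.44 in hub cells, difference 1.40 ± 0.63, adjusted p = 0.32), and S100a8, an alarmin of wounded epidermis (8.35 and 8.13 in LE cells, against 7.01 and 7.06 in hub cells, difference 1.20 ± 0.77, adjusted p = 0.519). In both the LE arrays lay above the hub arrays, by more than they differed from each other. With the 4 compared arrays fitted alone, both were called (adjusted p = 0.00823 for Procr and 0.00736 for S100a8). The rule takes fewer genes than the 2-fold difference of group means, which took 161 in each direction, since it asks for both replicates.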

How the data were processed

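The deposited table held log2 intensities of 45141 probe sets of an Affymetrix mouse genome platform for 12 arrays, which the authors normalized with RMA (version not given in the sources used here). The array medians were 5.40 to 5.47 at D4 and 4.25 to 4.28 at D7, so levels were compared within a day only. Of the probe sets, 104 are controls, 28898 pair with 1 gene, 551 with several and 15588 with none; where a gene had several, that of the highest mean was kept, which left 17097 genes. Probe sets without a single gene, 16139 in all, were tested in a separate fit over all 45037 probe sets that are not controls. They made up 86 of the 381 higher and 153 of the 463 lower probe sets of that fit. The log2 values of the 6 groups were fitted with limma 3.58.1 in R 4.3.3 (moderated test, 6 residual degrees of freedom, Benjamini-Hochberg over all genes, two-sided), without covariates. The methods give no test, only the fold rule of more than 2-fold in each replicate. The number of arrays limits the precision, and the median SE of a difference was 0.143. The test was checked on simulated data. Alternatives were other scalings, probe set rules, filters, weights, priors, subsets of arrays, the replicate block and each array left out.

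Named genes were the 15 largest called differences in each direction that pass the fold rule, up to 4 called members of each of 50 lists of function and 17 of cell types, genes that the paper names for the LE, and genes whose difference changed between days. A few others, such as Hk2, Nid1, Flrt3, Fgfr2 and the enzymes that fell with Maob, are named to complete a count. Of 37 measured genes that the paper names for the LE, 22 rose and none fell, with 35 above and 1 below without overlap. The 1 below was Timp3, which the paper names as the gene most downregulated in the LE. Several that were not called are not described above, among them Gprc5a (1.34, adjusted p = 0.112), Pcdh7 (0.88, adjusted p = 0.188), Gjb2 (0.73, adjusted p = 0.206) and Cdsn (0.22, adjusted p = 0.94). The members and lists were chosen with earlier results of these data known, and supply no independent evidence. Sequences come from RefSeq promoters (GRCm38.p6), matched by gene symbol for 13605 of 17097 genes.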

Additional observations from a re-analysis of the deposited data

Results flagged for a closer look

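The differences of 3 genes between LE and hub cells changed between D7 and D4 by the test of the change itself, and each difference lay closer to 0 at D7. The changes, D7 minus D4 on the log2 scale, were −3.32 for Uox, −3.13 for Stfa2l1 and −2.17 for Gjb6. For Uox the control cells of D4 measured 6.09 and 5.60, below both the LE and the hub arrays of that day. The hub cells of D4 lay between LE and control cells for Uox, without overlap among the 3 groups. Gjb6 was the only one of the 3 still called at D7. Leaving out 1 array ended the call of Uox in 8 of 12 fits, with the highest adjusted p, 0.287, without hub D7 replicate 2, and that of Gjb6 in 8 of 12, with the highest, 0.23, without the same array. Groups of 2 arrays are too small for a search for single arrays that stand apart.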

How the results depend on the processing

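At D7 the 227 risen and 239 fallen genes became 1 and 0 when a difference of at least 2-fold was tested, and 31 to 254 and 40 to 272 without 1 array. With the arrays of the day alone 385 genes fell. The replicate numbers did not pair LE with hub arrays at D7 (r = 0.002 between the deviations of same-numbered arrays), and with the replicate block 328 genes rose and 363 fell. The same correlation was 0.067 and 0.029 against the control arrays of D7 and 0.17 to 0.245 among the groups of D4. With only 2 numbers a group, and no label that ties a number to shared mice, the arrays were not taken as paired on either day. With the block 540 genes rose and 474 fell at D4, and 2 of the 3 changes between days were called. At D7 it left Cdh5 (adjusted p = 0.0519), Nav2 (0.0519), Tpm2 (0.0569), Pmp22 (0.0572), Prickle2 (0.0574) and Pdgfc (0.064) uncalled among the genes named as risen or fallen. At D4 the 446 risen and 367 fallen genes became 13 and 5 at 2-fold, 154 and 109 with the arrays of the day alone, 121 and 75 with 4 arrays, and 161 to 482 and 161 to 425 without 1 array. The 3 genes with a lower difference at D7 than at D4 became 1 at 2-fold, 1 with the 8 LE and hub arrays alone and 1 to 33 without 1 array, the 33 without LE D4 replicate 2. The count of higher ones was 0 to 2. The fold rule took 161 genes in each direction by group means, against 102 higher and 96 lower, and 158 to 249 higher and 194 to 218 lower on 1 replicate. Subtracting array medians gave 252 risen and 196 fallen at D7, other scalings 189 to 221 and 203 to 228. No result at D7 for a named gene that was called reversed its direction, but of the 813 genes called at D4, 2 did when the probe sets of each gene were averaged. Changes of sign in named genes that were not called were not counted. Of the results for named genes 634 were no longer called, 88 became called and 3268 stayed on their side of the threshold. Each group has 2 arrays, signals near the array median are close to the background of the platform, and genes there, such as Cd34 and the T cell markers, have levels without a reliable order.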
